A study of Mus musculus with 7 samples.

Results

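Hox genes encode homeodomain transcription factors that lie in clusters A, B, C and D, and each gene carries a paralog number that gives its place within its cluster. Low numbers are used towards the head and high numbers towards the tail and the tips of the limbs, an order that follows their order along the chromosome. Fibroblasts keep in culture a Hox pattern that reflects where in the body they came from, which is known as positional memory, whereas hepatocytes descend from the foregut endoderm.

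The members were all genes whose annotated symbol is Hoxa, Hoxb, Hoxc or Hoxd followed by a number, and each gene was represented by the brightest of its probe sets, averaged over 7 arrays. The rule found 36 of the 18193 genes in the table, which are 33 Hox genes and 3 opposite-strand RNAs of the clusters (Hoxa11os, Hoxb5os and Hoxd3os1), given apart. Of the 39 Hox genes of the mouse in the RefSeq table, 6 had no probe set of their own and were not analysed here. The measured genes were 9 of cluster A, 9 of cluster B, 7 of cluster C and 8 of cluster D. By paralog number, 7 were anterior (1 to 3), 12 central (4 to 8) and 14 posterior (9 to 13).

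The study converted C57BL/6J mouse embryonic fibroblasts (MEF) into induced hepatic stem cells (iHepSCs) with lentiviruses that express Oct4 and Hnf4a from an SFFV promoter, and compared them with primary hepatocytes (pHep). RNA was hybridised to Affymetrix Mouse 430 2.0 arrays, with 2 arrays of iHepSCs (passage 20, P20, and passage 3, P3), 1 of pHep from C57BL/6J mice aged 6 weeks and 4 of MEF. Levels are log2 values after Robust Multiarray Analysis (RMA), which corrects the background, aligns the arrays and sums up the probes of a probe set. The MEF were taken from midgestation embryos after the head and all internal organs had been removed. The iHepSCs were grown as clones in hepatocyte medium, and the detailed work of the study was done with the clone iHepSC-C3. The pHep were isolated by collagenase perfusion, and the labels also describe a culture of such cells in that medium. No source names separate cultures for the replicates, so that p-values measure only the spread between these arrays, which may be technical. The 2 iHepSC arrays, 1 per passage, served as replicates of 1 group. Their labels name no clone, so differences between clones may not be covered.

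The labels were set against marker genes. Of 12 fibroblast markers, limma called 11 lower in iHepSCs and 10 lower in pHep, each against MEF, and their summed log2 level was 89.2 to 89.5 in iHepSCs, 104 in pHep and 142 to 153 in MEF. Of 10 hepatocyte markers, 7 were higher in iHepSCs and 9 in pHep. The pHep array also carried macrophage genes (7 of 9 above MEF), with Vsig4 of Kupffer cells at 11.57, against 4.96 to 5.51 in MEF. MEF replicate 1 stood apart from the other 3 MEF arrays over all probe sets, with correlations of 0.960 to 0.961 against 0.997 among the others, and its level of Mki67, a gene of dividing cells, was 8.18 against 11.36 to 11.57. Counts and named results that change without this array are given with and without it.

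More than 1 in 2 Hox genes fell in iHepSCs against MEF, with Hoxc8, Hoxd13, Hoxc10 and Hoxd10 at the head of the list on all arrays. Without MEF replicate 1 the list was headed by Hoxc8, Hoxc10, Hoxd8 and Hoxb2. In a stretch of cluster A, Hoxa5, Hoxa7 and Hoxa9 were higher in iHepSCs than in pHep. These were 3 of the 33 Hox genes, a share near the 9.26% of all genes called higher there. Hoxa10 lay 3.40 above pHep on the log2 scale without passing the test on all arrays. With limma, a linear model that shares the estimate of variance among genes, and an adjusted p under 0.05 over all genes, 18 of the 33 Hox genes were lower in iHepSCs, 0 were higher and 15 were not called. Over all genes, 13.4% were called lower and 18.2% higher in this comparison. At an unadjusted p under 0.05 limma called 22 Hox genes lower and 0 higher, and no share of all genes was worked out for that threshold. The median log2 difference of the 33 genes was -0.69, beside 0.01 for all genes. Both iHepSC arrays lay below all 4 MEF arrays for 25 of the 33 Hox genes and for 23.7% of all genes. In bulk samples, fewer cells of a type and less RNA per cell cannot be told apart. With MEF replicates 2 to 4 averaged as 1 sample, a setting chosen after the data were seen, 9 were lower, with no share of all genes worked out. Without MEF replicate 1 the count of lower genes was 26 and 1 gene, Hoxa10, was higher, while over all genes the shares were then 24.8% lower and 31.0% higher. With either iHepSC array left out it was 10, and those called with each array left out in turn were Hoxa5, Hoxa11, Hoxb2, Hoxb5, Hoxb6, Hoxb9, Hoxc4, Hoxc8, Hoxc10 and Hoxd8.

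**Figure D1:**
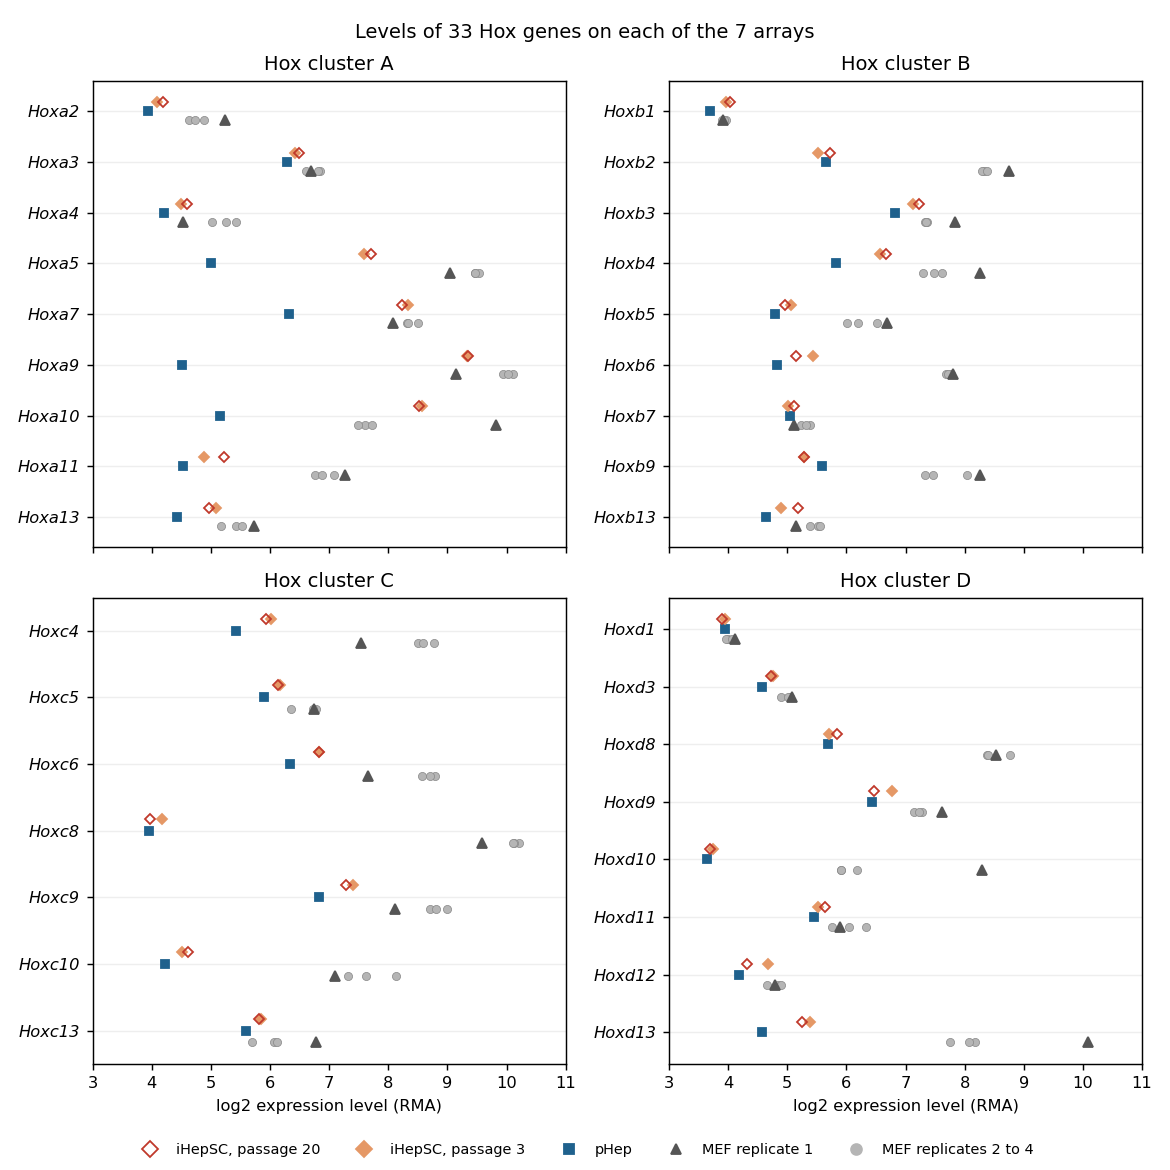
RMA log2 level of each measured Hox gene on each of the 7 arrays, by cluster, with paralog numbers increasing downwards. Open and filled diamonds are iHepSCs at passage 20 and passage 3, squares are pHep, triangles are MEF replicate 1 and circles are MEF replicates 2 to 4, with 1 marker per array and no averaging. Levels are to be compared within a row only, since probe sets differ in brightness. In the rows of Hoxa5, Hoxa7, Hoxa9 and Hoxa10 the pHep square lies far to the left of the iHepSC diamonds, whereas in rows such as Hoxc8, Hoxd8 and Hoxb2 the iHepSC and pHep markers lie together, left of all MEF arrays.

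With all arrays the clusters differed in how many members were lower in iHepSCs, and these counts, though not the medians, differed less without MEF replicate 1. In cluster C 6 of 7 genes were lower (median -1.60), in cluster B 5 of 9 (median -1.04), in cluster D 4 of 8 (median -0.56) and in cluster A 3 of 9 (median -0.46). By position, 9 of 12 central paralogs were lower, beside 7 of 14 posterior and 2 of 7 anterior ones. Without MEF replicate 1 the counts of lower genes were 6 of 7 in cluster C, 7 of 9 in cluster B, 6 of 8 in cluster D and 7 of 9 in cluster A, and 11 of 12 central, 11 of 14 posterior and 4 of 7 anterior genes were lower. The cluster medians were then -1.86 in C, -0.84 in B, -0.53 in D and -0.61 in A. The members of a cluster are not replicates, and no test was made between clusters or positions. Of the 15 genes that were not called, 8 stayed below a level of 6 on every array, a dim range for which no detection call was given. These were Hoxa4, Hoxa13, Hoxb1, Hoxb7, Hoxb13, Hoxd1, Hoxd3 and Hoxd12. A difference from a level in this range may understate the change, and no fold is given for it. Without MEF replicate 1 the genes not called were Hoxa7, Hoxb1, Hoxb3, Hoxc13, Hoxd1 and Hoxd12.

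In pHep 24 of the 33 Hox genes were lower than in MEF and 0 were higher by limma, at an adjusted p under 0.05. Over all genes 15.5% were lower and 14.8% higher at that threshold. At an unadjusted p under 0.05 the Hox counts were 29 and 0, with no share of all genes worked out. The median of the Hox genes was -1.82, beside -0.13 for all genes. The single pHep array lay below all 4 MEF arrays for every one of the 33 Hox genes, as it did for 45.7% of all genes. Cluster A now held 7 lower genes of 9, beside 6 of 9 in cluster B, 6 of 7 in cluster C and 5 of 8 in cluster D. The pHep array has no replicate, and it was assumed to vary like the other groups. It could not be left out, so the leave-out counts cover MEF and iHepSC arrays only. With each array left out in turn, 17 of the 24 calls held throughout. Without MEF replicate 1 the count was 29 (9 of 9 in cluster A, 7 of 9 in B, 6 of 7 in C and 7 of 8 in D), and 31.6% of all genes were lower. This comparison shares its MEF arrays with that of iHepSCs.

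**Figure D2:**
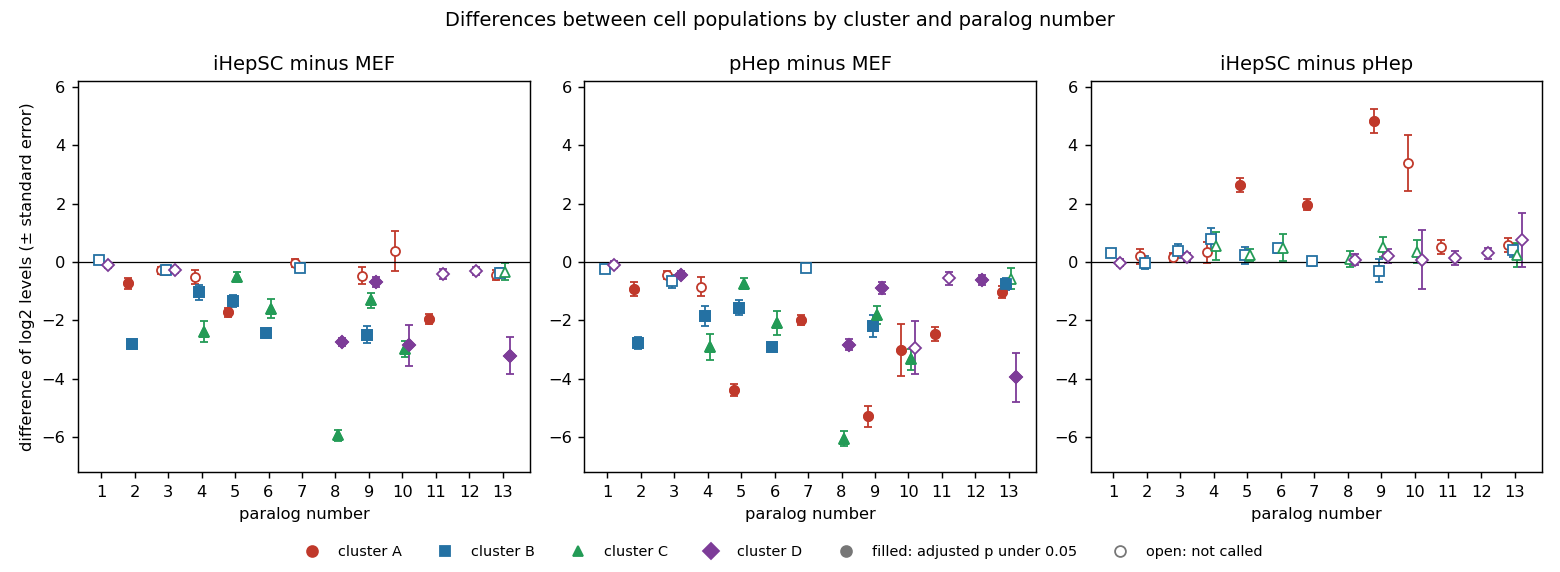
Difference of log2 levels, with its standard error from limma, for each Hox gene by paralog number, as iHepSC minus MEF (left), pHep minus MEF (middle) and iHepSC minus pHep (right). Filled symbols have an adjusted p under 0.05 over all genes, open symbols do not, and colour and shape give the cluster. On the left Hoxa7, Hoxa9 and Hoxa10 sit near 0, in the middle they lie at -2.0, -5.29 and -3.01, and on the right Hoxa5, Hoxa7, Hoxa9 and Hoxa10 are at 2.65, 1.97, 4.83 and 3.40 while all other members lie between -0.30 and 0.79.

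The measured genes that run from Hoxa5 to Hoxa10 along cluster A had the 4 largest differences between iHepSCs and pHep. Hoxa9 works in the posterior trunk and in blood stem cells. Its level was 9.36 at P20 and 9.33 at P3 in iHepSCs, 4.52 in pHep, and 9.15, 10.11, 9.94 and 10.03 in MEF replicates 1 to 4. Both iHepSC arrays thus lay within the MEF range and far above pHep. The difference from pHep, whose level was in the dim range, was 4.83 ± 0.40 (log2, SE), with a limma adjusted p of 0.000547. The difference from MEF was -0.46, with a 95% interval of -1.15 to 0.22 and an adjusted p of 0.278. Without MEF replicate 1 it was -0.68 with an adjusted p of 0.00036. A second probe set of Hoxa9 gave a smaller difference from pHep, 1.02, that did not pass the test (adjusted p = 0.151).

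Hoxa7 patterns the thoracic skeleton. It stood at 8.24 (P20) and 8.33 (P3) in iHepSCs, 6.31 in pHep, and 8.09, 8.33, 8.50 and 8.34 in MEF replicates 1 to 4. Its iHepSC levels overlapped those of MEF, with a difference of -0.03 and a 95% interval of -0.35 to 0.30. Against pHep it was 1.97 ± 0.19 higher (SE), or 3.92-fold, with an adjusted p of 0.00101.

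Hoxa5, needed for the lung and the neck and thorax skeleton, was the 1 gene of these 4 called lower than in MEF. It was at 7.71 (P20) and 7.59 (P3) in iHepSCs, 5.0 in pHep, and 9.04, 9.47, 9.53 and 9.47 in MEF replicates 1 to 4. The iHepSCs took a place between the others, with no overlap on either side. They were 1.73 ± 0.16 below MEF (SE, adjusted p = 0.000513) and 2.65 ± 0.23 above pHep (adjusted p = 0.00068). A second probe set of Hoxa5 differed from MEF by -0.40 and was not called there (adjusted p = 0.0876).

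Hoxa10 acts in the lumbar spine, the limb and the uterus. Its level was 8.52 (P20) and 8.57 (P3) in iHepSCs and 5.15 in pHep, whereas MEF replicates 1 to 4 were at 9.82, 7.60, 7.72 and 7.49. The iHepSC arrays were above MEF replicates 2 to 4 and below replicate 1. With all arrays the difference from pHep was 3.40 ± 0.96 (SE, adjusted p = 0.0634) and that from MEF 0.38 (adjusted p = 0.718). With each array centred on its median, that from pHep passed (adjusted p = 0.0403). Without MEF replicate 1 the same differences were 3.40 (adjusted p = 2.17e-06) and 0.94 (adjusted p = 0.000121). A second Hoxa10 probe set was dim on all arrays and did not show the difference.

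By limma 3 Hox genes, namely Hoxa5, Hoxa7 and Hoxa9, were higher in iHepSCs than in pHep and 0 were lower. At an unadjusted p under 0.05 these counts were 7 and 0, a threshold for which no share of all genes was worked out. At the adjusted threshold 9.26% of all genes were higher, near the share of the Hox genes, and 7.89% were lower. Leaving out MEF replicate 1, which enters only through the spread, brought the count of higher genes to 12 and the share of all genes to 25.4%. On either side of that stretch, no other gene of cluster A was called against pHep on all arrays, and Hoxa13 was called without MEF replicate 1. Against MEF, Hoxa3 (-0.29, adjusted p = 0.0917), Hoxa4 (-0.51, adjusted p = 0.186) and Hoxa13 (-0.44, adjusted p = 0.0953) were not called, whereas Hoxa2 and Hoxa11 were lower. Another probe set of Hoxa3 differed by -1.16 and was called lower (adjusted p = 0.00724). The remaining ones of Hoxa3, at -0.05 and 0.19, were not called. Hoxa11, a gene of the forearm, kidney and uterus, was at 5.21 (P20) and 4.88 (P3) in iHepSCs, 4.53 in pHep and 7.27, 6.76, 7.08 and 6.88 in MEF, a fall by 1.95 ± 0.18 against MEF (SE, adjusted p = 0.00045). Hoxa2, which patterns the second pharyngeal arch, was at 4.18 and 4.10 in iHepSCs, 3.94 in pHep and 5.24, 4.63, 4.74 and 4.88 in MEF. Its fall by 0.73 had an adjusted p of 0.0266, which was lost when MEF replicate 3, MEF replicate 4 or an iHepSC array was left out (adjusted p = 0.0526 to 0.157).

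The paralogs of these genes in other clusters were also measured. Hoxb9, Hoxc9 and Hoxd9 were all lower in iHepSCs than in MEF, by 2.49, 1.31 and 0.69. Hoxc10 and Hoxd10 fell by 2.98 and 2.85, and Hoxb5 and Hoxc5 by 1.34 and 0.50. Hoxb7, the measured paralog of Hoxa7, was dim and differed by -0.20. It was not called with all arrays (limma adjusted p = 0.239) and was called lower without MEF replicate 1. The difference between paralogs within a cell population was not tested. Against pHep, none of these genes was called in iHepSCs with all arrays, with differences between -0.30 and 0.51.

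The RefSeq promoter table (GRCm38.p6, 250 bases before the start of transcription) held 19 of the 33 measured genes, and those of Hoxa5, Hoxa7, Hoxa9 and Hoxa10 are shown beside those of Hoxd8 and Hoxd13, which fell and were not called against pHep. The genes and the motif were chosen after the values were seen. Capitals mark TTTATG, a hexamer bound by Cdx proteins, on either strand. Hoxa10 has another start in the table, which is not shown, and Hoxc8 has no entry.
Hoxa5 (chr6:52204588-52204837, minus strand): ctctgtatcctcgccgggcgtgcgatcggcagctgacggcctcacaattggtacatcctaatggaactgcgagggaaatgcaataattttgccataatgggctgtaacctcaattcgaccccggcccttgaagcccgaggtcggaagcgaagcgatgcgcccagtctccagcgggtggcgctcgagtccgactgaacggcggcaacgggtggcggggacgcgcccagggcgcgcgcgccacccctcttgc
Hoxa7 (chr6:52218574-52218823, minus strand): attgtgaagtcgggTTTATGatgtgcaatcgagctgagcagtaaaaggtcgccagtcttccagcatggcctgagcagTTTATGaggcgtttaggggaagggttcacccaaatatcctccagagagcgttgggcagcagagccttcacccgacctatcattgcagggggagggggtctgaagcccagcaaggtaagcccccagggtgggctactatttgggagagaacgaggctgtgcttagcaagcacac
Hoxa9 (chr6:52227371-52227620, minus strand): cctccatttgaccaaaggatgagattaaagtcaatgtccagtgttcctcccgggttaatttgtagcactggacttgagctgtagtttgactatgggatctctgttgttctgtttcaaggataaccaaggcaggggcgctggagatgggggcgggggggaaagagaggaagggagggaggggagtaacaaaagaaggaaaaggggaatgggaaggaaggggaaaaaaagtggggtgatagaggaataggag
Hoxa10 (chr6:52240855-52241104, minus strand): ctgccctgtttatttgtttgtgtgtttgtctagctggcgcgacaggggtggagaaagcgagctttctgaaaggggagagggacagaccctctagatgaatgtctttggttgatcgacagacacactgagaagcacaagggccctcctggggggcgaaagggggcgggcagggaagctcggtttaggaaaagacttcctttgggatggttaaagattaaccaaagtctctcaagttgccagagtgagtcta
Hoxd8 (chr2:74704365-74704614, plus strand): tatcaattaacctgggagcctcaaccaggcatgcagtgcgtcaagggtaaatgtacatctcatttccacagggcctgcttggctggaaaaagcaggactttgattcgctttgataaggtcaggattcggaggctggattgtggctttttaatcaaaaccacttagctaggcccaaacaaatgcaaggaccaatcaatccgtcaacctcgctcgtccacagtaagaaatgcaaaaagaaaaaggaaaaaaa
Hoxd13 (chr2:74667975-74668224, plus strand): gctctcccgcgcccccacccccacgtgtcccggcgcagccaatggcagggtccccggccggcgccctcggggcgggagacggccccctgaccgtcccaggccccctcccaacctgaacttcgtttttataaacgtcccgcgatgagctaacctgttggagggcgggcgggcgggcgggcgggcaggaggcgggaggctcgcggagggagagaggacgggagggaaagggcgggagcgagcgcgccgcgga

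The hexamer was found 2 times before Hoxa7 and in none of the other 5 stretches. It occurred in 10.8% of the 32851 promoter stretches of the table and in 5 of 24 Hox stretches (Hoxa7, Hoxb8, Hoxd3, Hoxd4 and 1 start of Hoxd11). The stretches also differed in CpG dinucleotides, the sites of DNA methylation, with 28 before Hoxa5, 7 before Hoxa7, 3 before Hoxa9, 7 before Hoxa10, 6 before Hoxd8 and 31 before Hoxd13. The median of all promoters was 6 (quartiles 2 and 16). A match of letters is not a bound site, and CpG-rich and CpG-poor stretches were found both in cluster A and in cluster D.

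Cluster C held the largest fall. Hoxc8, which sets the identity of the thorax and of brachial motor neurons, was at 3.97 (P20) and 4.17 (P3) in iHepSCs, 3.96 in pHep, and 9.59, 10.20, 10.13 and 10.11 in MEF replicates 1 to 4. The iHepSC and pHep arrays lay together and far below every MEF array. The fall was 5.94 ± 0.20 in iHepSCs (SE, adjusted p = 6.44e-06) and 6.05 ± 0.25 in pHep. Hoxc10, of the lumbar cord and hindlimb, was at 4.62 and 4.51 in iHepSCs, 4.22 in pHep and 7.11, 8.12, 7.63 and 7.33 in MEF, and fell by 2.98 ± 0.28 (SE, adjusted p = 0.000507). Hoxc4, of the neck and upper thorax, was at 5.93 and 6.02 in iHepSCs, 5.43 in pHep and 7.54, 8.77, 8.51 and 8.59 in MEF. It was lower by 2.38 ± 0.35 (SE, adjusted p = 0.00314), and MEF replicate 1 was the lowest MEF array.

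Hoxc5 was read by a probe set that changed little, at 6.13 and 6.17 in iHepSCs, 5.90 in pHep and 6.74, 6.78, 6.72 and 6.36 in MEF. Its fall by 0.50 (adjusted p = 0.0435) did not pass when MEF replicate 2, MEF replicate 3 or an iHepSC array was left out (adjusted p = 0.107 to 0.211). The other 2 probe sets of Hoxc5 differed by -3.07 (called) and -1.83 (adjusted p = 0.0651). Hoxc6 and Hoxc9 were lower by 1.60 and 1.31, and lost the call without either iHepSC array (adjusted p = 0.0894 and 0.095 for Hoxc6, 0.0622 and 0.0822 for Hoxc9). A second probe set of Hoxc6 differed by -1.16 and was not called (adjusted p = 0.067). Hoxc13 was the member of the cluster not called.

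In cluster B, among the probe sets of the rule, the anterior gene Hoxb2, of the hindbrain, had the largest fall. It was at 5.73 (P20) and 5.52 (P3) in iHepSCs, 5.65 in pHep and 8.75, 8.33, 8.29 and 8.38 in MEF, so that iHepSCs and pHep shared a level below all MEF arrays. It fell by 2.81 ± 0.16 (SE, adjusted p = 6.01e-05). Hoxb9, which shapes the ribs, was at 5.28 and 5.29 in iHepSCs, 5.58 in pHep and 8.26, 8.03, 7.47 and 7.33 in MEF, a fall by 2.49 ± 0.28 (SE, adjusted p = 0.00113). Hoxb6 was at 5.15 and 5.43 in iHepSCs, 4.82 in pHep and 7.80, 7.68, 7.77 and 7.71 in MEF, and fell by 2.45 ± 0.11 (SE, adjusted p = 2.47e-05). Hoxb4 and Hoxb5 were lower by 1.04 and 1.34, and Hoxb4 lost its call when MEF replicate 2, MEF replicate 4 or an iHepSC array was left out (adjusted p = 0.0563 to 0.164).

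Hoxb3, of the hindbrain and pharynx, differed between its probe sets. By the rule it was read at 7.24 and 7.13 in iHepSCs, 6.82 in pHep and 7.84, 7.36, 7.33 and 7.35 in MEF, a difference of -0.29 that was not called (adjusted p = 0.275). Its other probe set was at 4.14 (P20) and 4.44 (P3) in iHepSCs, 4.54 in pHep and 8.38, 8.63, 8.21 and 8.35 in MEF, with a called difference of -4.10. Of the 33 Hox genes 11 had more than 1 probe set. With the mean of all probe sets per gene, 20 Hox genes were lower in iHepSCs and 27 in pHep, with no share of all genes worked out.

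With all arrays and the probe sets of the rule, the largest fall in cluster D was that of Hoxd13, which shapes the digits. It was at 5.25 (P20) and 5.38 (P3) in iHepSCs, 4.57 in pHep, and 10.08, 8.17, 8.07 and 7.75 in MEF replicates 1 to 4. It fell by 3.20 ± 0.65 (SE, adjusted p = 0.0119), or by 2.68 without MEF replicate 1 (adjusted p = 4.44e-06), and lost the call without either iHepSC array (adjusted p = 0.0823 and 0.0958). Hoxd10, of the lumbar cord and limb, was at 3.70 and 3.74 in iHepSCs, 3.64 in pHep and 8.30, 5.92, 5.90 and 6.17 in MEF. MEF replicate 1 was the highest MEF array for both. A second probe set of Hoxd13 fell by less, 1.18 (limma adjusted p = 0.00856). On it MEF replicates 1 to 4 lay closer together, at 7.02, 6.76, 6.59 and 6.99. The fall of Hoxd10 was 2.85 ± 0.71 (SE, adjusted p = 0.0255), was not called when MEF replicate 4 or an iHepSC array was left out (adjusted p = 0.0552 to 0.151), and was 2.28 without MEF replicate 1 (adjusted p = 2.98e-06).

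Hoxd8 was at 5.84 and 5.70 in iHepSCs, 5.69 in pHep and 8.54, 8.77, 8.37 and 8.40 in MEF, and fell by 2.75 ± 0.14 (SE, adjusted p = 4.01e-05). Its MEF arrays lay close together, replicate 1 included, unlike those of Hoxd10 and Hoxd13 on the probe sets of the rule. Without MEF replicate 1, Hoxd8 and not Hoxd13 had the largest fall of the cluster. Hoxd9 was lower by 0.69 and lost the call when MEF replicate 2, MEF replicate 4 or an iHepSC array was left out (adjusted p = 0.0533 to 0.184).

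The opposite-strand RNAs lie within the clusters, and some are known to act on their neighbours. Hoxb5os was at 6.17 and 6.56 in iHepSCs, 5.85 in pHep and 9.50, 9.26, 9.0 and 9.22 in MEF, and in iHepSCs fell by 2.89 ± 0.18 (SE, adjusted p = 8.11e-05). Hoxa11os, which overlaps Hoxa11, was at 5.39 and 5.26 in iHepSCs, 4.63 in pHep and 7.60, 6.17, 6.71 and 6.55 in MEF, a fall by 1.43 (adjusted p = 0.0318). Each thus moved in the direction of Hoxb5 and Hoxa11. Hoxd3os1 was at 4.96 and 4.94 in iHepSCs, 4.43 in pHep and 4.68 to 5.0 in MEF, and was not called. Its second probe set, at 4.11 and 3.89 in iHepSCs, 3.97 in pHep and 4.43 to 5.69 in MEF, differed by -1.23 and was not called either (adjusted p = 0.066).

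Between passages the Hox levels hardly moved. The difference of P20 minus P3 ran from -0.35 (Hoxd12) to 0.33 (Hoxa11) over the 33 genes, with a median of -0.01, and none passed 1 on the log2 scale (0.539% of all genes did). Each passage has 1 array and no test was made. For Hoxa7, Hoxa9 and Hoxa10 the passages differed by -0.09, 0.03 and -0.05.

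On MEF replicate 1 the Hox genes differed from the other MEF arrays about as often as all genes did. By Dixon's ratio of a gap to the whole range, 1 MEF array lay far from the other 3 for 6 of the 33 Hox genes and for 23.5% of all genes. MEF replicate 1 was more than 1 above the mean of replicates 2 to 4 for 3 of the 33 Hox genes and more than 1 below it for 2, beside 8.26% and 3.73% of all genes. The 3 were the posterior genes Hoxd10 (2.30), Hoxa10 (2.22) and Hoxd13 (2.08), and the 2 were the central genes Hoxc4 (-1.08) and Hoxc6 (-1.03). By its second probe set Hoxd13 was at 7.02 on replicate 1, against 6.76, 6.59 and 6.99 on replicates 2 to 4. The median over the Hox genes was 0.08, as it was over all genes. Other posterior genes lay below the mean on it, among them Hoxa9 (-0.88), Hoxc9 (-0.72) and Hoxc10 (-0.59).

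**Figure D3:**
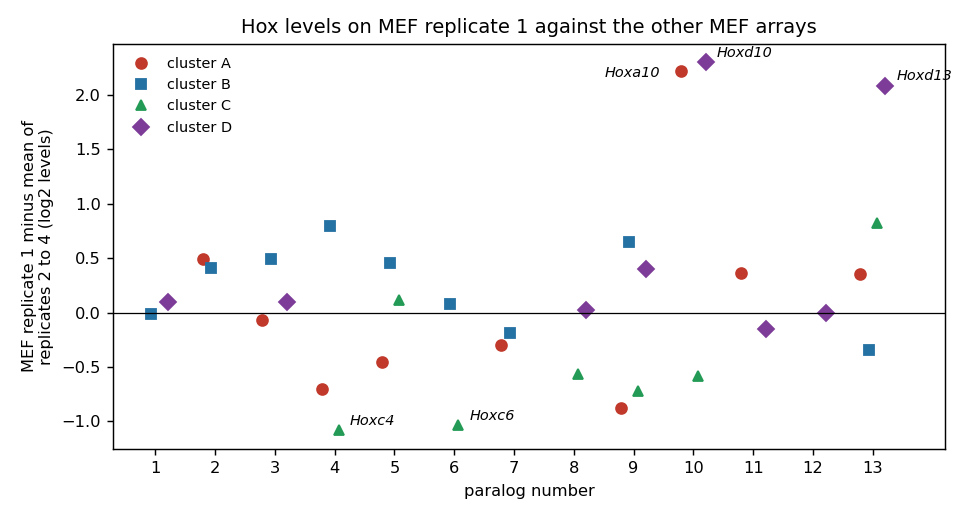
Level of each Hox gene on MEF replicate 1 minus the mean of MEF replicates 2 to 4, in log2 units, by paralog number and cluster. Each point is 1 gene, with no error since replicate 1 is a single array. Hoxd10, Hoxa10 and Hoxd13 lie at 2.30, 2.22 and 2.08, Hoxc4 and Hoxc6 lie below -1, and all other members are between -0.88 and 0.82.

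Of the 37 other homeobox and T-box genes of limb, trunk and head, 10 were more than 1 above the mean of replicates 2 to 4 on this array and 1 was more than 1 below it, with a median of 0.14. Tbx4, Msx1 and Lhx2 were chosen after their values were seen. Tbx4, a T-box factor of the hindlimb, was at 8.88 on it, against 5.94, 6.15 and 6.19 on replicates 2 to 4. Msx1, of the limb bud and facial mesenchyme, was at 9.82 against 7.25, 7.22 and 7.21, and Lhx2, of the limb bud, at 6.72 against 4.29, 4.52 and 4.27. Irx5 (1.89), Tbx2 (1.81), Irx3 (1.65), Tbx15 (1.43), Tbx18 (1.17), Prrx2 (1.12) and Meox2 (1.02) were also more than 1 above. Some limb genes of the list did not stand out. Tbx5 of the forelimb was at 7.04 against 7.33, 7.09 and 7.06, and differences were -0.12 for Shox2, 0.14 for Lhx9 and 0.52 for Pitx1. The same array was low in all 3 genes of dividing cells (list median -2.72) and high in fibroblast genes (list median 0.90), and the part of these in the Hox pattern was not tested.

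The counts over the lists that follow stand beside 18.2% of all genes higher and 13.4% lower in iHepSCs, and 14.8% and 15.5% in pHep. Among the partners of Hox proteins, Pbx3 and Meis1 were lower in iHepSCs. Of 8 genes for TALE homeodomain cofactors, which bind DNA together with Hox proteins, 4 were lower in iHepSCs and 0 higher, and 4 were lower in pHep (list medians -0.78 and -1.06). Pbx3 was at 7.83 (P20) and 8.11 (P3) in iHepSCs, 8.63 in pHep and 10.07 to 10.16 in MEF. Meis1 was at 6.79 and 6.87 in iHepSCs, 5.91 in pHep and 8.04 to 8.61 in MEF. Pbx3 fell by 2.14 and Meis1 by 1.46 in iHepSCs, with no overlap with MEF. Meis2 was at 9.43 and 9.76 in iHepSCs and 7.99 in pHep, against 10.37 to 10.89 in MEF, and iHepSCs were above pHep by 1.61 (adjusted p = 0.0073).

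Of 18 upstream regulators of Hox genes, from retinoic acid signalling, the Cdx family and, with Gdf11 and Egr2, other pathways, 3 were higher and 8, Egr2 among them, lower in iHepSCs than in MEF. Cdx2, a ParaHox factor that activates Hox genes in the posterior embryo, was at 9.02 (P20) and 8.97 (P3) in iHepSCs, 6.13 in pHep and 6.37 to 6.64 in MEF. It was higher in iHepSCs than in MEF by 2.50 ± 0.12 (SE, adjusted p = 2.42e-05) and than in pHep by 2.87. Aldh1a1, an enzyme that makes retinoic acid and is abundant in liver, was higher by 5.61 in iHepSCs and by 5.66 in pHep. Crabp1 and Crabp2, which bind retinoic acid in the cell, fell by 6.38 and 5.04 in iHepSCs, and Rxra, a partner of the retinoic acid receptors, was 2.83 higher in pHep than in MEF.

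**Figure D4:**
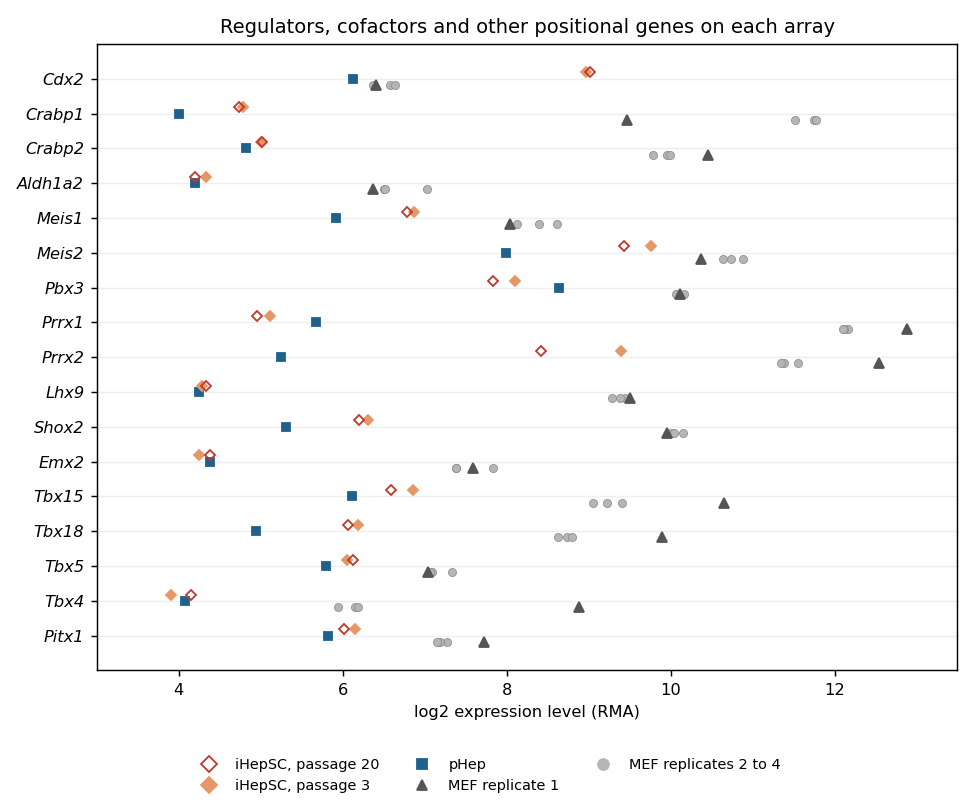
RMA log2 level of 17 genes from the lists of Hox regulators, cofactors and other positional factors on each of the 7 arrays, with the genes chosen after their values were seen. Diamonds are iHepSCs (open for passage 20, filled for passage 3), squares are pHep, triangles are MEF replicate 1 and circles are MEF replicates 2 to 4. In the row of Cdx2 the iHepSC diamonds, near 9, lie above all other arrays, Prrx1 shows a wide gap to MEF, and for Tbx4 the triangle lies at 8.88.

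The shares of chromatin regulators called higher were near that of all genes in iHepSCs, and for Polycomb subunits also in pHep. Of 21 Polycomb subunits, which keep Hox genes silent, 4 were higher and 1 lower in iHepSCs, with a list median of 0.00. Cbx7 rose by 2.11 and Ezh1 by 1.99, and Rnf2 fell by 0.60. In pHep 3 were higher, Ezh1 (1.44) and Cbx7 (1.34) among them, and 1, Pcgf2 (-0.75), was lower. Of 10 genes for Trithorax proteins, which keep Hox genes active, and for demethylases that remove the Polycomb mark, 2 were higher and 0 lower in iHepSCs. Kdm6a, such a demethylase, rose by 1.57 and Kmt2b by 0.58. In pHep 4 of the 10 were higher, Kdm6a (2.01) and Kdm6b (1.87) among them, a larger share than the 14.8% of all genes.

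Other homeobox and T-box genes of limb, trunk and head were more often lower than higher, with 15 of 37 lower and 2 higher in iHepSCs and 15 lower and 1 higher in pHep (list medians -0.67 and -0.89). Prrx1, of limb and facial mesenchyme, was at 4.95 (P20) and 5.11 (P3) in iHepSCs, 5.67 in pHep and 12.10 to 12.89 in MEF, and fell by 7.29 in iHepSCs. Lhx9, of limb bud and gonad, fell by 5.10. Prrx2 was at 8.42 and 9.39 in iHepSCs and 5.25 in pHep, against 11.34 to 12.54 in MEF, and was 3.66 higher in iHepSCs than in pHep (adjusted p = 0.00953). Pax3, of neural crest and muscle precursors, and Otx1, of the forebrain, were higher in iHepSCs than in MEF by 1.28 and 0.55, and Irx5 was 2.57 higher in pHep.

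Among endodermal and ParaHox genes more were higher, with 7 of 14 higher and 0 lower in iHepSCs and 7 higher and 1 lower in pHep. Foxa2, a factor that opens liver genes, rose by 6.24 in iHepSCs and Onecut2 by 4.57. Hhex, needed for the liver bud, was 7.59 higher in pHep than in MEF, and Gsx1, of the ParaHox cluster, was 0.64 lower there. Among 15 non-coding and other genes beside or within the Hox clusters, 4 were higher and 3 lower in iHepSCs. The 3 include Hoxb5os and Hoxa11os, the opposite-strand RNAs described above, which fell by 2.89 and 1.43. Lnpk, next to cluster D, was lower by 1.56, and Snx10 and Smug1 were higher by 1.64 and 1.18.

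Of 18 genes that Hox proteins regulate or act with in limb and trunk, 3 were higher, near the share of all genes, and 5 lower in iHepSCs. Grem1, a BMP antagonist of the limb bud, and Gli3, an effector of Hedgehog signalling, fell by 5.03 and 3.71 in iHepSCs and by 5.03 and 3.45 in pHep. Bmp2 rose by 3.92 and Itgb3 by 1.56 in iHepSCs. In pHep Igfbp1, a secreted liver protein, was 9.35 higher than in MEF and Ptch1 was 1.71 higher. These levels come from whole cell populations, and the part of fibroblast content in them was not tested.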

How the data were processed

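The authors normalised the arrays by Robust Multiarray Analysis and deposited log2 expression values of 45101 probe sets. The software version of that step is not given in the sources used here. Precision is limited by the number of arrays. All value columns were mapped to a sample by its label.

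Probe sets were named by the platform annotation, and 34945 with 1 symbol were kept (64 control, 932 with several symbols and 9160 with none were left out). The rule kept, per gene, the probe set of highest mean. A linear model with 1 mean each for iHepSC, pHep and MEF was fitted by lmFit and eBayes (limma 3.58.1, R 4.3.3) over 18193 genes, with Benjamini-Hochberg adjustment over all of them and a threshold of 0.05. The model had 4 residual and 2.11 prior degrees of freedom, and was tested on simulated data. Gene lists are given by counts and medians without a test. Other software was Python 3.11.15, numpy 2.4.6, pandas 2.3.3 and matplotlib 3.10.9.

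Hox genes given with every array were the 3 largest falls per cluster in iHepSCs, those called between iHepSCs and pHep, and those with 1 MEF array far from the others or replicate 1 over 2 away (17 genes). Of each other list, up to 2 rises and 2 falls past the test were named. The members, lists and rules were chosen with earlier results of these data known. Promoter sequences are those of RefSeq on GRCm38.p6. Alternatives were the mean of probe sets, probe set suffixes, a filter at 6, normalisation and centring, trend and robust fitting, leaving out arrays, the replicate block, a 2-fold floor and the methods' t-test. A mean of MEF replicates 2 to 4 as 1 sample, and each other probe set of a gene, were added after the data were seen.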

Additional observations from a re-analysis of the deposited data

Results flagged for a closer look

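For 6 of the 33 Hox genes 1 MEF array lay far from the other 3 by Dixon's ratio of the gap to the whole range. Chance marks about 1 gene in 20 in this way, and 23.5% of all genes were marked in these arrays. MEF replicate 1 was the highest for Hoxb3 (0.942), Hoxa10 (0.902) and Hoxd10 (0.887), and the lowest for Hoxa5 (0.866) and Hoxc8 (0.843). For Hoxc5 the lowest was MEF replicate 4 (0.877). Of these genes, only Hoxa10 and Hoxd10 have differences given above without the far array. The cause of the spread among MEF was not tested.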

How the results depend on the processing

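The direction of the called Hox differences did not change under any alternative that was run, and several calls were lost. Shares of all genes were worked out only with all arrays and without MEF replicate 1. The counts under other settings therefore cannot be set beside all genes. The number of Hox genes lower in iHepSCs than in MEF was 18, and 8 with the replicate block, 9 with MEF replicates 2 to 4 averaged as 1 sample (chosen after seeing the data) and 11 by the methods' t-test after Benjamini-Hochberg adjustment (20 before it). It was 10 to 26 with 1 array left out, and the number higher was 0 to 1. The number lower in pHep was 24, and 6 with the block, 11 with MEF replicates 2 to 4 averaged, and 18 to 29 with 1 array left out. The number higher in iHepSCs than in pHep was 3, and 0 with the block and 3 to 12 with 1 array left out. MEF and iHepSCs share the replicate numbers 1 and 2 only, and the deviations of arrays with the same number correlated at -0.22 and -0.21. With 2 iHepSC arrays the deviations of 1 mirror those of the other. These correlations therefore cannot decide whether such arrays share more than a number. Fewer degrees of freedom are left in the fits with fewer samples, and the cause of the lost calls was not tested.

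Centring on Gapdh raised the median of all genes between iHepSCs and MEF by 0.49. It gave 13 lower Hox genes in iHepSCs and 16 in pHep, with no share of all genes worked out. Among differences that were not called, signs turned for Hoxa7 between iHepSCs and MEF (0.461 centred on Gapdh, 0.0161 without iHepSC replicate 2, 0.0324 without MEF replicate 3, 0.0772 with the replicate block, 0.0459 with MEF replicates 2 to 4 averaged, and -0.104 to 0.0324 with 1 array left out). They also turned for Hoxa9 (0.0256) and Hoxb3 (0.205) when centred on Gapdh, and for Hoxa10 (-0.169 with the replicate block, -0.171 with MEF replicates 2 to 4 averaged and -0.0412 by its other probe set). The cause was not tested. Without detection calls, a level near the dim end of an array cannot be told from background.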
